A study of Mus musculus with 16 samples.

Results

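Serine withdrawal was examined in macrophages under lipopolysaccharide (LPS) through 8 of the 16 RNA-seq libraries of the series, 4 from cells with LPS in medium that held serine and 4 from cells with LPS in medium that lacked it. Every gene with enough counts in these 8 libraries was included, 9989 of the 43430 genes in the deposited count table, and the libraries were paired by the replicate number in their titles. The cells were bone marrow-derived macrophages of C57BL/6J mice (labelled c57/bl6), grown from marrow with macrophage colony-stimulating factor, harvested on day 6 and then plated in MEM. LPS was added to all 8 cultures at 100 ng/mL, 4 h before the RNA was extracted. The group called here with serine is labelled Control-LPS and was kept in complete MEM, and the group called without serine is labelled Dropout-LPS and was kept in MEM that lacked serine. The remaining 8 libraries, from cells with no LPS in the same 2 media, 4 in each, entered to test withdrawal in untreated cells and whether it differed from that in LPS-treated cells. They were also added in some alternative fits, where this is stated. How long the cells were without serine before LPS is not given in the sources used here, and neither is the sex of the mice or whether the 4 replicates of a group came from separate mice. The p-values of the paired tests therefore measure the spread left between these libraries once differences between replicate numbers are removed, which may be technical.

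Serine can be taken up from the medium or made from the glycolytic intermediate 3-phosphoglycerate by the enzymes PHGDH, PSAT1 and PSPH, and it feeds glycine, glutathione, sphingolipids and, through the folate cycle, nucleotides and methyl groups. A shortage of an amino acid leaves transfer RNAs uncharged, which activates the kinase GCN2; phosphorylation of the initiation factor eIF2 then lowers general protein synthesis but favours translation of the transcription factor ATF4. ATF4 drives genes for amino acid synthesis, amino acid transport and the charging of transfer RNAs. In macrophages, LPS is sensed by TLR4 with CD14, and NF-kB and interferon signalling then switch on cytokines such as IL-1β, IL-6 and TNF. IL-1β is made as an inactive precursor from the Il1b transcript and is cleaved by caspase-1 in inflammasomes, so the transcript measured here is 1 step of its production. The title of the series names serine metabolism in the production of IL-1β.

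Total counts ranged from 6240112 to 8092528 with serine and from 6573849 to 7892215 without it, and 14000 to 14767 genes had at least 1 count in a library. Both replicate 1 libraries had 1214 to 1333 counts on chromosome Y and none of Xist, while the other 6 had Xist counts of 669 to 906 and no more than 16 on chromosome Y, so that replicate 1 looked male and the others female, and sex cannot be told apart from replicate 1. Macrophage markers summed to 23010 ± 2708 CPM (counts scaled to a common library size; SD, n = 4) with serine and 21350 ± 2438 CPM without it, with all 14 markers detected. Their sum was lower without serine in 4 of 4 pairs, and 8 of the 14 were called lower in the paired edgeR fit (57.1%, against 10.5% of all genes, which is described below), Emr1, Fcgr1, Lyz2, C1qa, C1qb, C1qc, Cd14 and Cx3cr1, with 0 higher. For the sum, an exact permutation test that ignores the pairs gave a two-sided p of 0.371, and sign exchange within pairs an exact p of 0.125, the smallest that 4 pairs allow. The 10 dendritic cell markers summed to 12.4 to 14.6 CPM with serine and 8.46 to 11.2 CPM without it (two-sided exact permutation p = 0.0286 ignoring the pairs, the smallest it allows, and 0.125 with sign exchange within pairs), of which 8.70 and 5.77 CPM were Xcr1. Markers of B and plasma cells, of T and natural killer cells, and of mast cells and basophils summed to means of at most 0.865 CPM in either group, with Pax5, Cd3e and Cma1 among those at 0 in all 8 libraries. Neutrophil markers averaged 34.95 and 32.4 CPM, with Ly6g at 0, and stromal markers 38.2 and 29.6 CPM, lower in 4 of 4 pairs (sign exchange within pairs, exact p = 0.125), with 1 of 6 tested called lower, Pdgfrb (-0.49 ± 0.11, edgeR adjusted p = 0.000391). The part of these marker changes in the results was not tested. In such bulk RNA, fewer cells of a type and less RNA per cell cannot be told apart.

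Withdrawal of serine under LPS moved many genes by a little and few by much. Of the 9989 genes tested, 1208 (12.1%) were higher and 1051 (10.5%) lower without serine, 22.6% in all, at an adjusted p under 0.05 in the paired quasi-likelihood test of edgeR with Benjamini-Hochberg adjustment. Log2 changes are given as the level without serine minus the level with it, ± a standard error derived from the test. It is the absolute change divided by the square root of the F statistic of the same test. The median absolute change of the called genes was 0.256 (log2), against 0.125 over all genes tested, whose median change was -0.00162. A change of at least 0.5 was reached by 214 of the genes called higher and 136 of those called lower, and a change of at least 1 by 31 and 10. Of the 2259 called genes, 2088 moved in the direction of the call in all 4 pairs. The 4 libraries without serine lay wholly above those with serine for 437 of the 9989 genes (4.37%) and wholly below for 363 (3.63%), and 654 of the called genes had such separate ranges.

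The number of calls rests on the pairing. The biological coefficient of variation was 3.39% in the paired fit and 14.4% without the replicate block. Without the block 24 genes were called higher and 11 lower, all of them called in the same direction in the paired fit, and 1152 genes had an unadjusted p under 0.05 against 3241 with it. All 2259 called genes kept their sign without the block. Log2 differences of the 4 pairs correlated at 0.707 to 0.749 across the 4301 genes with a mean of at least 32 CPM, a description over genes that are not independent. A plot of each gene's change against its mean level shows this shape, a dense band about 0 with the serine-response genes above it and Il1b below.

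**Figure D1:**
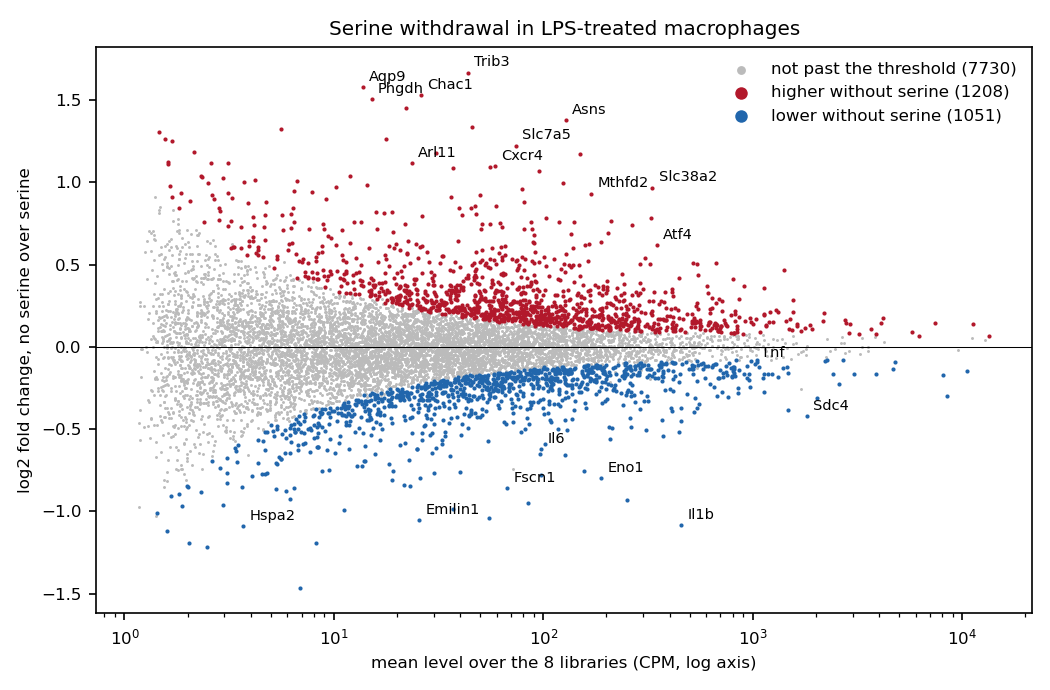
Log2 change without serine minus with serine (vertical axis) against mean CPM over the 8 libraries (horizontal log axis) for the 9989 genes tested, coloured where called higher (1208) or lower (1051) at an adjusted p under 0.05 in the paired edgeR fit. Most called genes lie within 0.5 of 0, and Trib3 and Asns stand among the highest changes while Il1b is among the lowest.

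Il1b, which encodes the precursor of IL-1β, was the called gene of smallest p among those lower. It lies at chr2:129364570-129371139 on the minus strand of mm10. Its level in replicates 1 to 4 was 754, 507, 579 and 628 CPM with serine and 367, 242, 288 and 266 CPM without it, so that every library without serine was below every library with it. The mean fell from 617 ± 104 to 291 ± 54.2 CPM (SD, n = 4), to 47.2% of the level with serine, a log2 change of -1.08 ± 0.04 (edgeR adjusted p = 5.23e-29). Unlike most calls, this one held without the replicate block (edgeR adjusted p = 0.0247).

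Il1a, which encodes the other IL-1 agonist, stood at 509, 285, 349.7 and 301 CPM with serine and 387, 217, 243 and 181 CPM without it. It was lower within each of the 4 pairs although the groups overlapped, and replicate 1 was the highest library in both (-0.50 ± 0.04, edgeR adjusted p = 5.32e-11). Il6, an inducer of the acute phase response, stood at 94.3, 140.5, 136 and 102 CPM with serine and 55.7, 105, 85.5 and 63.3 CPM without it, again lower in 4 of 4 pairs with overlapping groups (-0.62 ± 0.05, edgeR adjusted p = 8.97e-14). Neither Il1a nor Il6 was called without the replicate block (edgeR adjusted p = 0.491 and 0.253). The same held in the edgeR fit of all 16 libraries (adjusted p = 0.0705 and 0.0597). Both were called in DESeq2 and with any 1 replicate left out. Il27, which encodes the p28 subunit of IL-27, changed by -0.52 ± 0.05 (edgeR adjusted p = 8.25e-11). Il1rn, the secreted antagonist of the IL-1 receptor, rose by 0.21 ± 0.03 (edgeR adjusted p = 8.96e-08) and was higher in 4 of 4 pairs. Il1rap, the shared subunit of the IL-1 receptor, fell (-0.37 ± 0.08, edgeR adjusted p = 0.000219).

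Tnf had a small change. Its level was 1452, 884, 974 and 921 CPM with serine and 1253, 904, 928 and 828 CPM without it, with replicate 1 well above the rest in both groups and 3 of 4 pairs lower. The change of -0.10 ± 0.03 passed the test in edgeR (adjusted p = 0.015) but not without replicate 1 (adjusted p = 0.189) or without replicate 4 (adjusted p = 0.136), in DESeq2 (adjusted p = 0.086) or with a length and GC correction (adjusted p = 0.157). Nos2, the inducible nitric oxide synthase, stood at 435, 927, 1173 and 1011 CPM with serine and 346, 817, 1189 and 953 CPM without it. Its change of -0.14 ± 0.04 (edgeR adjusted p = 0.0116) did not pass without replicate 1 (adjusted p = 0.0755) or replicate 2 (adjusted p = 0.0719). Nor did it pass in DESeq2 (adjusted p = 0.224), with a length and GC correction (adjusted p = 0.0657) or in an edgeR fit that adds 7 untreated libraries (adjusted p = 0.242). Il12b, the p40 subunit of IL-12 and IL-23, stood at 141, 75.9, 85.4 and 56.4 CPM with serine and 58.9, 58.96, 58.8 and 36.4 CPM without it, lower in each pair by widely different amounts. Its change of -0.74 ± 0.20 did not pass in the robust edgeR fit (adjusted p = 0.0932), though it did with edgeR's non-robust moderation (adjusted p = 3.96e-09), in DESeq2 (adjusted p = 0.00438), in edgeR without replicate 1 (8.53e-08) and without replicate 2 (0.0353). Il10, an anti-inflammatory cytokine, stood at 25.1, 16.4, 22.2 and 17.9 CPM with serine and 27.8, 11.2, 18.2 and 16.5 CPM without it and did not pass (-0.15 ± 0.10, edgeR adjusted p = 0.324). Of the 20 cytokine genes tested out of 29 in the list, 7 fell and 1 rose (5% higher and 35% lower, against 12.1% and 10.5% of all genes), with 2 rising without replicate 3, and the median change was -0.13.

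**Figure D2:**
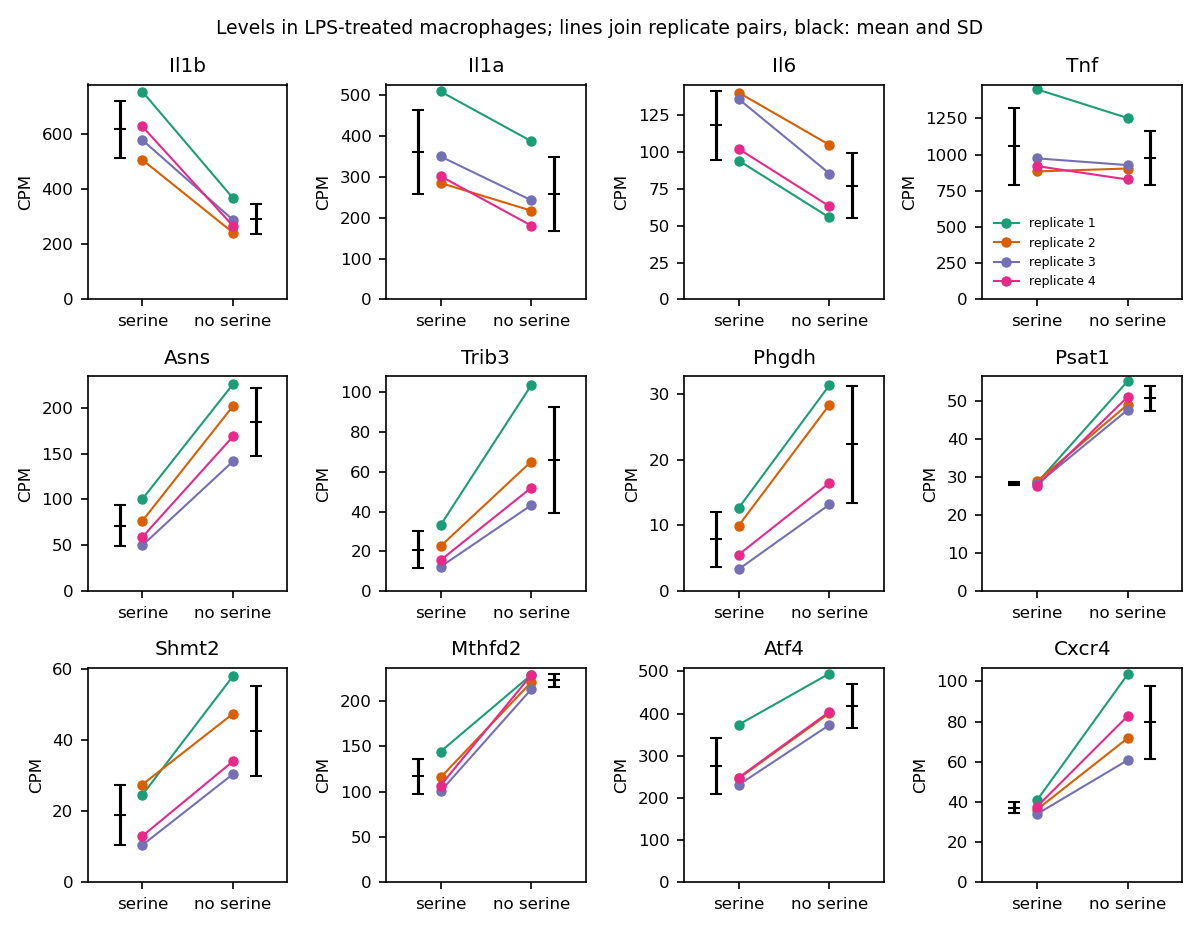
CPM of 12 genes in each of the 8 libraries, with serine on the left and without it on the right of each panel, thin lines joining libraries of the same replicate number and black marks giving the mean and SD (n = 4). For Il1b the 4 libraries without serine lie between 242 and 367 CPM and those with it between 507 and 754 CPM, while for Tnf the groups overlap.

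Chemokine transcripts were mostly lower. Of 19 chemokine genes tested, 11 fell (57.9%, against 10.5% of all genes) and 1 rose, the scavenger-receptor chemokine Cxcl16 (0.13), with a median change of -0.18. Cxcl3, which attracts neutrophils, stood at 352, 126, 67.6 and 72.7 CPM with serine and 234, 83.1, 40.03 and 40.5 CPM without it, lower in each pair on top of a spread between replicates that was larger than the change (-0.66 ± 0.05, edgeR adjusted p = 1.25e-15). Ccl22, a ligand of CCR4, changed by -0.69 ± 0.09, Pf4 by -0.33 ± 0.05, Ccl4, a CC chemokine, by -0.25 ± 0.03 and Cxcl10, a ligand of CXCR3, by -0.13 ± 0.03. These 4 were called lower too, so that falls of very different size stood side by side within the list.

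Of 32 genes of NF-kB signalling and of its feedback, 8 fell and 2 rose (6.25% higher and 25% lower, against 12.1% and 10.5% of all genes), with a median of -0.02. Without replicate 4, 5 fell, and 1 rose without replicate 2, 3 or 4. The 4 of smallest p were Ptgs2, which encodes cyclooxygenase-2 (-0.27), the inhibitory kinase homologue Irak3 (-0.29), Tnfaip2 (-0.17) and the cytokine signalling inhibitor Socs3 (-0.16), all lower. Among 13 genes for Toll-like receptors and their co-receptors 4 rose and 4 fell (30.8% higher and 30.8% lower), and 2 fell without replicate 1. Tlr4, the LPS receptor, stood at 55.3, 66.7, 71.98 and 60.2 CPM with serine and 85.8, 85.8, 89.01 and 92.8 CPM without it, higher in every library without serine (0.48 ± 0.06, edgeR adjusted p = 3.34e-09), whereas Cd14, which hands LPS to it, fell (-0.17 ± 0.03, edgeR adjusted p = 3.66e-06). Tlr7, a sensor of RNA, rose (0.20) and Tlr1, a partner of TLR2, fell (-0.31).

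Interferon-stimulated genes moved little. Of 36 tested, 11 rose (30.6%, against 12.1% of all genes) and 3 fell, the median was 0.02 and all 36 changes lay between -0.15 and 0.25. Parp14 (0.17) and Rsad2, which encodes the antiviral protein viperin (0.14), rose, and Ifi47, an immunity-related GTPase (-0.15), fell with Cxcl10. The number that rose was 7 without replicate 2 or 3 and 6 without replicate 4. Of 14 guanylate-binding proteins and immunity-related GTPases, which attack vacuoles of microbes, 5 rose and 1 fell (35.7% higher and 7.14% lower). Those higher were led by Gbp7 (0.17), Gbp3 (0.13) and Gbp2 (0.11), and the 1 lower was Irgm1 (-0.12). Without replicate 4 it was 3 higher and 2 lower, and without replicate 3 also 3 higher. Of 28 genes of interferon beta and JAK-STAT signalling, 5 rose and 4 fell. These shares, 17.9% higher and 14.3% lower, were near the 12.1% and 10.5% of all genes. Among the called genes were Stat3 (0.17), Stat5a (-0.22) and the feedback inhibitor Socs1 (-0.57).

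The machinery that cleaves and releases IL-1β gave calls in both directions. Of 18 inflammasome and pyroptosis genes, 6 fell, Il1b among them, and 3 rose (16.7% higher and 33.3% lower, against 12.1% and 10.5% of all genes), with a median of 0.03. Casp4, the mouse sensor of cytosolic LPS (0.31 ± 0.04, edgeR adjusted p = 1.09e-08), and Nek7, which binds NLRP3 (0.26 ± 0.04, edgeR adjusted p = 7.00e-07), rose, and Gsdmd, the pore-forming protein of pyroptosis, fell (-0.35 ± 0.05, edgeR adjusted p = 1.24e-06).

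All 3 enzymes that make serine rose. Phgdh, the first step, stood at 12.7, 9.98, 3.32 and 5.54 CPM with serine and 31.4, 28.4, 13.2 and 16.5 CPM without it, with each library without serine above each with it (1.503 ± 0.11, edgeR adjusted p = 3.72e-15). Psat1, the second step, lay within 27.7 to 28.8 CPM in the 4 libraries with serine and within 47.6 to 55.2 CPM without it, so that the groups were far apart against a narrow spread (0.85 ± 0.07, edgeR adjusted p = 5.79e-14). Psph, the last step, was detected at only 3.90, 4.28, 1.52 and 1.30 CPM with serine and 6.51, 6.96, 3.64 and 3.14 CPM without it, and its groups overlapped although all 4 pairs were higher (0.87 ± 0.21, edgeR adjusted p = 0.00124). DESeq2 called Phgdh and Psat1 and gave Psph no adjusted p, at a log2 change of 0.94.

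Of 20 genes of the folate cycle tested, 3 rose and 0 fell (15% higher and 0% lower, against 12.1% and 10.5% of all genes), Shmt2, Mthfd2 and Dld. Shmt2, the mitochondrial enzyme that splits serine into glycine and a one-carbon unit, stood at 24.6, 27.5, 10.5 and 13.04 CPM with serine and 58.05, 47.5, 30.5 and 34.1 CPM without it, with separate groups (1.18 ± 0.09, edgeR adjusted p = 8.38e-14). Mthfd2, the next mitochondrial step, stood at 144, 116, 100.3 and 107 CPM with serine and 228, 220.3, 213 and 228 CPM without it, and it too had no overlap (0.93 ± 0.05, edgeR adjusted p = 6.21e-12). Dld, a dehydrogenase subunit shared by the glycine cleavage system and related dehydrogenases, rose by 0.18 ± 0.04 and was not called without replicate 2. Shmt1, the cytosolic counterpart of Shmt2, had few counts, at 1.58, 1.43, 1.38 and 0.815 CPM with serine and 2.13, 1.70, 1.67 and 2.04 CPM without it, and its change of 0.51 ± 0.32 did not pass (edgeR adjusted p = 0.28). Over the whole list the median was 0.01.

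Genes of the ATF4 network and its stress targets were mostly higher without serine. Of 40 in the list 36 were tested, and 32 of these rose (88.9%, against 12.1% of all genes), 1 fell and the median change was 0.77. The list includes the serine enzymes above and several synthetases and transporters below. Asns, the asparagine synthetase, stood at 100.4, 76.6, 49.7 and 58.9 CPM with serine and 226, 202, 142 and 169 CPM without it (1.38 ± 0.05, edgeR adjusted p = 1.51e-25). Trib3, a pseudokinase that binds ATF4, stood at 33.1, 22.5, 12.2 and 15.5 CPM with serine and 104, 65.2, 43.2 and 51.98 CPM without it (1.67 ± 0.07, edgeR adjusted p = 1.95e-24). In both genes the groups did not overlap, and replicate 1 was the highest and replicate 3 the lowest library on either side. Chac1, which degrades glutathione, stood at 23.8, 11.1, 8.29 and 10.1 CPM with serine and 53.9, 38.6, 26.5 and 35.3 CPM without it (1.53 ± 0.10, edgeR adjusted p = 3.54e-17), with no overlap. Ddit3, which encodes the stress factor CHOP, stood at 40.4, 23.2, 22.5 and 16.8 CPM with serine and 106, 64.8, 38.97 and 53.1 CPM without it (1.34 ± 0.08, edgeR adjusted p = 2.59e-13); here the lowest library without serine fell just under the highest with it.

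Atf4 itself rose less, at 374, 247, 231 and 248 CPM with serine and 495, 401, 373 and 405 CPM without it, and its groups overlapped, replicate 1 with serine lying far above the other 3 (0.62 ± 0.04, edgeR adjusted p = 1.19e-13). Pck2, the mitochondrial phosphoenolpyruvate carboxykinase, went from 11.8 ± 3.91 to 32.2 ± 6.28 CPM (1.45 ± 0.10), Gpt2, the mitochondrial alanine transaminase, changed by 0.99 ± 0.11, Eif4ebp1, a repressor of cap-dependent translation, by 0.85 ± 0.06 and Atf3, a factor induced in the same response, by 0.29 ± 0.03. Slc7a11, the cystine transporter and a known target of ATF4, was the 1 member called lower, at 848, 528, 343 and 453 CPM with serine and 812, 514, 320.1 and 372 CPM without it. It was lower in each of 4 pairs by a small amount (-0.12 ± 0.03, edgeR adjusted p = 0.0099), and was not called without replicate 4 (adjusted p = 0.26), in DESeq2 (adjusted p = 0.0655) or in a fit that adds 7 untreated libraries (adjusted p = 0.311). Without the replicate block 6 of the 36 genes were called higher, and leaving out 1 replicate gave 31 to 33.

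The upstream sequences of these genes were searched for the C/EBP-ATF response element, the composite site that ATF4 is known to bind with a C/EBP partner. They are shown because the list moved together and Slc7a11 did not. The 250 bases before each RefSeq start site (build GRCm38.p6) were searched on both strands for TGATGNAA, and the match is in capitals, with N any base. Each sequence is the strand of its gene, so a match on the opposite strand appears as its reverse complement. Asns carries it 16 to 23 bases before its start (chr6:7693210-7693292, minus strand), Chac1 186 to 193 bases before (chr2:119350992-119351116, plus strand), Aars 105 to 112 bases before (chr8:111033670-111033797, plus strand), Pck2 96 to 103 bases before (chr14:55540103-55540230, plus strand) and Slc7a11 59 to 66 bases before (chr3:50443614-50443739, minus strand), where the printed window also holds the second match, in lower case, 40 to 47 bases before the start.
Asns: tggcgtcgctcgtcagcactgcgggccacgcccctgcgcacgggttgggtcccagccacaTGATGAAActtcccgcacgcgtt
Chac1: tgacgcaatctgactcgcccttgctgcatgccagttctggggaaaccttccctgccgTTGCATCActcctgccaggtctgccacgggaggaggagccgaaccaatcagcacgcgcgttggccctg
Aars: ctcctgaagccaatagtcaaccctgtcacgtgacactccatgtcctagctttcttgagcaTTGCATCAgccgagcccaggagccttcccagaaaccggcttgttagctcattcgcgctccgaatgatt
Pck2: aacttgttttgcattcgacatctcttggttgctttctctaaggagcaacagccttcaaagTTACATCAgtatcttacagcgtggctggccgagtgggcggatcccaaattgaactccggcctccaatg
Slc7a11: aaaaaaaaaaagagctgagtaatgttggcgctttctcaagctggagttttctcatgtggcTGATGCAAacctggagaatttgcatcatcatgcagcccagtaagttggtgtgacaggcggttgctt

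A match was found in 10 of the 31 list genes with a promoter in the table (32.3%), against 192 of 7554 tested genes with one (2.54%) and 1134 of 32851 promoters in all (3.45%). Of those 10, Asns, Aars, Pck2, Chac1, Tars, Herpud1 and Atf3 rose, Slc7a11 fell, and Jdp2 and Nupr1 were not called. Among genes called higher by at least 0.5 it was 12 of 155 (7.74%), and among those called lower by at least 0.5 it was 3 of 99 (3.03%). The list was made of ATF4 network genes, with earlier results of these data known, so its share describes the list and not its change. The share is a description of letters in a window and not of binding, and a promoter with none, such as that of Phgdh, says only that these letters are not in this window.

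Transfer RNA synthetases of the cytosol were mostly higher without serine. Of the 20 genes on the list of cytosolic enzymes, 14 rose, 1 fell (70% higher and 5% lower, against 12.1% and 10.5% of all genes) and the median was 0.66. Nars, for asparagine, stood at 264, 196, 156 and 176 CPM with serine and 416, 334, 265 and 304 CPM without it (0.74 ± 0.04, edgeR adjusted p = 6.91e-22), and Aars, for alanine, at 312, 257, 182 and 208 CPM with serine and 484, 431, 349 and 373 CPM without it (0.78 ± 0.04, edgeR adjusted p = 4.69e-20). Neither overlapped between the groups. Iars, for isoleucine (0.96 ± 0.06), and Gars, for glycine (0.76 ± 0.04), rose as well, and the single one that fell was Farsa, a subunit of the phenylalanine enzyme (-0.26), which was not called without replicate 2. None of the 15 genes tested on the separate list of mitochondrial enzymes was called in edgeR. The smallest p were those of Cars2 (-0.55 ± 0.23, adjusted p = 0.0788) and Yars2 (-0.22 ± 0.14, adjusted p = 0.269). Of the 15, 1 had an unadjusted p under 0.05, DESeq2 called 0 of the 6 it gave an adjusted p, and 1 was called lower in edgeR without replicate 1 and without replicate 4.

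Of 25 amino acid transporters tested, 9 rose and 3 fell (36% higher and 12% lower, against 12.1% and 10.5% of all genes). Slc38a2, a sodium-coupled carrier of small neutral amino acids, stood at 324, 199.6, 176 and 201 CPM with serine and 589.6, 416, 342 and 402 CPM without it (0.97 ± 0.04, edgeR adjusted p = 7.81e-27), and the groups did not overlap. Slc7a5, the light chain of a carrier of large neutral amino acids, changed by 1.22 ± 0.06, its heavy chain Slc3a2 by 0.41 ± 0.03, and the cationic carrier Slc7a1 by 1.17 ± 0.05. Slc1a4, a carrier of serine and alanine, had 6.34, 2.42, 1.66 and 2.28 CPM with serine and 12.8, 7.25, 5.46 and 6.60 CPM without it (1.32 ± 0.18, edgeR adjusted p = 8.92e-08), and DESeq2 gave it no adjusted p, at a log2 change of 1.41. The arginine carrier Slc7a2 fell (-0.23 ± 0.03) beside Slc7a11.

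Among 15 genes for the synthesis of other amino acids, 3 rose and 2 fell (20% higher and 13.3% lower, against 12.1% and 10.5% of all genes). Asns, Gpt2 and Aldh18a1, which makes the precursor of proline (1.26 ± 0.15), rose. Ass1, the argininosuccinate synthase (-0.31 ± 0.07), and Oat, the ornithine transaminase (-0.21), fell, of which neither was called without replicate 1. Aldh18a1 stood at 14.4, 15.1, 7.18 and 4.57 CPM with serine and 29.9, 29.6, 16.4 and 24.2 CPM without it, and its replicate 4 moved most. In the methionine cycle and transsulfuration 2 of 14 fell and 0 rose (0% higher and 14.3% lower, the latter near the 10.5% of all genes). They were Enoph1 of methionine salvage (-0.62 ± 0.12) and Mat2a, which makes S-adenosylmethionine (-0.16 ± 0.04). Mat2a was not called without replicate 4. Glutathione and NRF2 genes went one way where they were called, with 0 higher and 11 lower of 25 (44%, against 10.5% of all genes; median -0.10). They included Srxn1, a sulfiredoxin (-0.49 ± 0.05), Txnrd1, a thioredoxin reductase (-0.18 ± 0.03), and the pentose phosphate enzymes Pgd (-0.27 ± 0.04) and Tkt (-0.18 ± 0.04). Of 25 genes of purine and pyrimidine synthesis only Adss, of the adenine branch, was called (0.40 ± 0.05), which is 4% higher and 0% lower.

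Regulators of translation and of mTORC1, the growth kinase complex that amino acids switch on, gave 10 higher and 3 lower of 38 (26.3% higher and 7.89% lower, against 12.1% and 10.5% of all genes). Sesn2, an inhibitor of mTORC1, stood at 52.3, 35.5, 23.1 and 30.5 CPM with serine and 101, 68.1, 56.7 and 75.7 CPM without it, with no overlap (1.09 ± 0.07, edgeR adjusted p = 2.87e-18). Fnip2 (0.76 ± 0.04) and Fnip1 (0.45 ± 0.05), the partners of folliculin, rose as well. In the unfolded protein response of the endoplasmic reticulum most calls were in the other direction, with 11 lower and 3 higher of 23 (13% higher and 47.8% lower). Manf, a secreted protein of that response, stood at 43.6, 43.1, 53.5 and 52.2 CPM with serine and 36.5, 28.4, 30.9 and 35.96 CPM without it (-0.54 ± 0.07, edgeR adjusted p = 1.17e-07), and Xbp1, its transcription factor, fell by 0.36 on the log2 scale without overlap. Herpud1, of protein degradation at the endoplasmic reticulum (0.74 ± 0.06), and Ern1, the sensor IRE1 (0.60 ± 0.06), rose. The number that fell was 5 without replicate 4, and 5 in DESeq2.

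Of 16 heat shock proteins 8 fell and 1 rose (6.25% higher and 50% lower, against 12.1% and 10.5% of all genes), and 5 fell without replicate 2. Hspa8, the constitutive cytosolic HSP70, stood at 526, 478, 550.4 and 538 CPM with serine and 373, 342, 410.2 and 411 CPM without it, with separate groups (-0.45 ± 0.03, edgeR adjusted p = 7.05e-16). Hspa2 stood at 5.12, 4.42, 5.66 and 4.89 CPM with serine and 2.63, 2.56, 2.12 and 2.04 CPM without it, also separate but at low counts (-1.09 ± 0.22, edgeR adjusted p = 0.000121). Hspa1a (-0.87 ± 0.17) and Hspa1b (-0.84 ± 0.09), the stress-inducible pair, are near-identical copies that share reads, so their separate values are uncertain. The one that rose was Hspa9, the HSP70 of mitochondria (0.54 ± 0.04, edgeR adjusted p = 8.36e-17).

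Glycolytic enzymes and HIF-1 targets were lower for 13 and higher for 4 of 30 tested (13.3% higher and 43.3% lower, against 12.1% and 10.5% of all genes), with a median of -0.17. Eno1, an enolase with close copies elsewhere in the genome that could share its reads, stood at 140.5, 248, 323 and 247 CPM with serine and 89.8, 144, 169 and 144 CPM without it, lower in each pair (-0.80 ± 0.04, edgeR adjusted p = 8.10e-21). Tpi1 (-0.44 ± 0.05) and Aldoa (-0.28 ± 0.03), both of the middle of the pathway, and Slc16a3, which exports lactate (-0.67 ± 0.08), fell. In the tricarboxylic acid cycle 8 of 28 fell and 1 rose (3.57% higher and 28.6% lower), and 0 rose without replicate 1, 3 or 4. Idh1, the cytosolic isocitrate dehydrogenase, stood at 73.5, 90.7, 112 and 106 CPM with serine and 53.2, 75.3, 73.1 and 67.5 CPM without it (-0.50 ± 0.06, edgeR adjusted p = 7.16e-10). Irg1, now called Acod1, which makes itaconate, changed by -0.17 ± 0.03 and Acly, which splits citrate, by -0.26 ± 0.05.

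Nuclear genes of the respiratory chain gave 15 lower and 1 higher of 79 tested (1.27% higher and 19% lower, against 12.1% and 10.5% of all genes), with Atp5a1 (-0.45 ± 0.03), Uqcrh (-0.30 ± 0.06), Sdhc (-0.25 ± 0.06) and Sdhd (-0.23 ± 0.06) of smallest p. Leaving out any 1 replicate brought the lower count to 7 to 9, and DESeq2 called 3 lower of the 72 it gave an adjusted p. Of 7 mitochondrially encoded genes 5 rose (71.4% higher and 0% lower), mt-Co1 (0.16), mt-Cytb (0.17), mt-Nd1 (0.15), mt-Nd5 (0.13) and mt-Nd4 (0.17). The share of counts on the mitochondrial genome was 0.492% to 0.596% with serine and 0.523% to 0.642% without it. Cytosolic ribosomal proteins were close to level, with 1 of 84 called, Rpl41 (-0.15), which is 0% higher and 1.19% lower. Their median was -0.01 and all changes lay between -0.15 and 0.19. The call of Rpl41 was lost without replicate 3, and 2 fell without replicate 2.

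Cholesterol synthesis and uptake genes, which the transcription factor SREBP2 drives, gave 15 lower and 0 higher of 24 tested (62.5% lower, against 10.5% of all genes), with a median of -0.38. Hmgcs1, the synthase that makes HMG-CoA, stood at 79.4, 63.7, 74.3 and 90.01 CPM with serine and 47.9, 48.2, 60.4 and 67.2 CPM without it, lower in 4 of 4 pairs with overlapping groups (-0.47 ± 0.06, edgeR adjusted p = 2.73e-08). Cyp51, which demethylates lanosterol (-0.61 ± 0.08), Sc4mol, a methylsterol oxidase (-0.54 ± 0.07), and Srebf2, which encodes SREBP2 itself (-0.27 ± 0.04), fell in 4 of 4 pairs too. Leaving out 1 replicate gave 10 to 13 lower members, DESeq2 gave 9 of the 14 with an adjusted p, and the fit without the block 1.

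The sterol regulatory element TCACNCCAC, which SREBP factors are known to bind, was found on either strand of the same window in 1 of the 16 cholesterol genes with a promoter, against 1.18% of the tested genes. That gene was Hmgcs1, shown because its fall is among those above, with the match in capitals 129 to 137 bases before the start (chr13:119690154-119690282, plus strand, GRCm38.p6).
Hmgcs1: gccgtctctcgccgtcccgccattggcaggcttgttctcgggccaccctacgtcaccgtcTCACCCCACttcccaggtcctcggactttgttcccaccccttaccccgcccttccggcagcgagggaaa

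Genes of cholesterol export and of the LXR receptors, which oxysterols activate, gave 7 higher and 3 lower of 15 (46.7% higher and 20% lower, against 12.1% and 10.5% of all genes). Abcg1, a cholesterol exporter, stood at 225, 243, 261 and 223 CPM with serine and 308, 366, 362 and 317 CPM without it, with no overlap (0.51 ± 0.04, edgeR adjusted p = 2.63e-16). Abca1, the other main exporter (0.36 ± 0.03), and Nceh1, which frees cholesterol from its esters (0.60 ± 0.04), rose. Ch25h, the LPS-induced enzyme that makes 25-hydroxycholesterol, went the other way at 288, 265, 379 and 373 CPM with serine and 148, 114, 213 and 219.5 CPM without it (-0.93 ± 0.05, edgeR adjusted p = 2.06e-11), again with separate groups. Fatty acid synthesis gave 3 lower, Acly, Elovl1 (-0.20) and Acaca (-0.44), and 1 higher, Acsl4 (0.27), of 12 (8.33% higher and 25% lower). The call of Acaca was lost without replicate 1, 2 or 4. Enzymes of sphingolipids and phosphatidylserine gave 6 higher and 2 lower of 26 (23.1% higher and 7.69% lower), with 1 lower without replicate 1, 2 or 3, and Sptlc2, a subunit of the transferase that joins serine to palmitate, rose by 0.17 ± 0.04 while Ugcg, which makes glucosylceramide, rose by 0.55 ± 0.05 and Cerk, a ceramide kinase, by 0.50 ± 0.07.

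Lysosomal genes rose where they were called, 11 of 28 (39.3%, against 12.1% of all genes) with 0 lower and a median of 0.08. The changes were small, with Atp6v0d2, a subunit of the proton pump (0.44 ± 0.07), Gla, the alpha-galactosidase (0.34 ± 0.04), and Gpnmb (0.15 ± 0.03) among those of smallest p. The E-box CACGTG, which is its own reverse complement, lies in 9 of the 19 lysosomal genes with a promoter in the table (47.4%), against 10.5% of the tested genes. This share describes the list, not its change.

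Transcription factors of the KLF family gave 5 higher and 0 lower of 10 (50% higher and 0% lower, against 12.1% and 10.5% of all genes). Klf4, which acts in monocyte and macrophage differentiation, stood at 24.5, 39.2, 35.2 and 35.1 CPM with serine and 52.04, 64.9, 57.2 and 67.4 CPM without it, with no overlap (0.86 ± 0.07, edgeR adjusted p = 1.68e-14), and Klf10 (0.55), Klf13 (0.35), Klf6 (0.20) and Klf9 (0.67) rose too. Regulators of cytokine mRNA decay gave 6 higher and 0 lower of 17 (35.3% higher and 0% lower), among them Zc3h12c, of the regnase family (0.22), Cnot1 (0.26) and Cnot6l (0.28) of the deadenylase complex, and Btg1 (0.16). Immediate early factors gave 6 higher, with Jun (0.36), Junb (0.18) and Atf3, and 2 lower, with Jund (-0.25), of 17 (35.3% higher and 11.8% lower). Of 8 MAP kinase phosphatases 2 rose and 2 fell (25% higher and 25% lower). Dusp4 (0.44 ± 0.04) and Dusp3 (0.34 ± 0.06) rose. Among those lower, Dusp2 fell with separate groups at 66.2, 36.6, 47.9 and 45.98 CPM with serine and 29.8, 14.5, 30.8 and 24.97 CPM without it (-0.99 ± 0.08, edgeR adjusted p = 1.43e-12).

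Of 16 p53 targets, 4 rose and 1 fell (25% higher and 6.25% lower, against 12.1% and 10.5% of all genes). Trp53inp1, a stress-induced regulator of cell death and autophagy, stood at 12.7, 14.5, 13.95 and 13.7 CPM with serine and 24.02, 23.3, 23.8 and 25.8 CPM without it, with no overlap and little spread in either group (0.82 ± 0.10, edgeR adjusted p = 2.52e-09). Mdm2, which degrades p53 (0.51 ± 0.04), Plk2 (0.52 ± 0.05) and Bbc3, the cell death activator PUMA (0.70 ± 0.10), rose, and Cdkn1a, the cell cycle inhibitor p21, fell (-0.31 ± 0.03, edgeR adjusted p = 3.40e-08). Of 13 genes of the BCL-2 family 4 rose and 1 fell (30.8% higher and 7.69% lower). The survival genes Mcl1 (0.28 ± 0.03) and Bcl2l1 (0.20 ± 0.06) rose beside the death genes Bbc3 and Bid (0.33 ± 0.05), and Bcl2l1 was not called without replicate 3 or 4. Complement genes were lower for 6 and higher for none of 12 (0% higher and 50% lower), with C5ar1, the receptor of C5a (-0.34 ± 0.04), C3 (-0.17 ± 0.03), C1qb (-0.17 ± 0.03) and C1qc (-0.16 ± 0.03) of smallest p, the C1q genes being among the macrophage markers too. The spread of the lists is shown in the plot of gene lists, where the ATF4 network and the cytosolic synthetases stand to the right of 0 and cholesterol synthesis to the left.

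**Figure D3:**
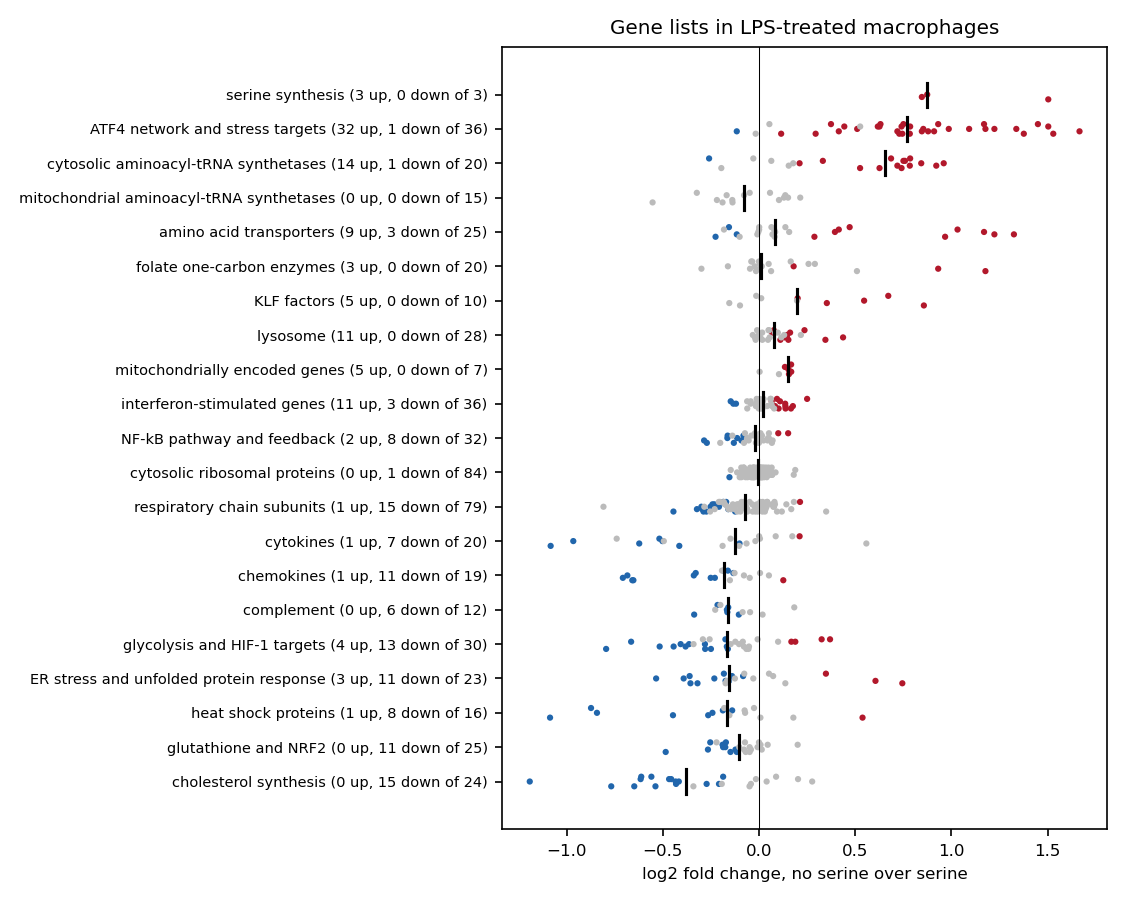
Log2 change without serine minus with serine of every tested member (dots) of 21 gene lists, with the median of each list as a black bar. The medians of the ATF4 network (0.77) and the cytosolic aminoacyl-tRNA synthetases (0.66) lie above 0, that of cholesterol synthesis (-0.38) below, and the cytosolic ribosomal proteins (-0.01) cluster about 0.

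Other genes with a large change came from no shared list. Cxcr4, the receptor of the chemokine CXCL12, stood at 40.8, 36.2, 33.99 and 37.7 CPM with serine and 103, 71.7, 60.8 and 82.8 CPM without it, so that each library without serine was above each with it (1.10 ± 0.07, edgeR adjusted p = 6.36e-18). Fam46c, a poly(A) polymerase, stood at 51.4, 79.3, 68.3 and 48.3 CPM with serine and 112, 167, 135 and 103 CPM without it (1.07 ± 0.05, edgeR adjusted p = 4.39e-23). Aqp9, a channel for water and glycerol, stood at 9.26, 9.27, 3.32 and 5.71 CPM with serine and 28.1, 22.3, 13.8 and 17.7 CPM without it (1.58 ± 0.12, edgeR adjusted p = 4.79e-15). Neither overlapped between groups. Arl11, a small GTPase of the ARF family (1.12 ± 0.09), Lhfpl2, a membrane protein (0.995 ± 0.05), and Trim35, of the TRIM family of ubiquitin ligases (0.69 ± 0.04), rose with separate groups.

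On the lower side, Plat, the tissue plasminogen activator, fell (-0.99 ± 0.13). Srsf6, a splicing factor, stood at 153, 119, 108 and 113 CPM with serine and 84.3, 62.9, 67.9 and 72.4 CPM without it (-0.78 ± 0.05, edgeR adjusted p = 2.06e-17). Fscn1, the actin bundling protein fascin, stood at 82.7, 75.7, 90.8 and 96.4 CPM with serine and 43.7, 39.8, 57.6 and 50.1 CPM without it (-0.86 ± 0.06, edgeR adjusted p = 7.42e-17), and like Srsf6 it showed no overlap. Emilin1, of the extracellular matrix (-1.05 ± 0.09), Adamts4, a protease of the matrix (-0.84 ± 0.10), Shisa3 (-1.04 ± 0.06), Pop1, a subunit of ribonuclease P (-0.86 ± 0.18), Gpr18, a G protein-coupled receptor (-0.86 ± 0.17), Tubb5, a tubulin (-0.56 ± 0.04), and Sdc4, a heparan sulfate proteoglycan (-0.42 ± 0.03), fell in 4 of 4 pairs. As given above, the summed stromal markers were lower in each pair too, and their part in these changes was not tested. The plot of pair differences shows the 4 pairs of each gene side by side and how far replicate 4 stands apart for Aldh18a1.

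**Figure D4:**
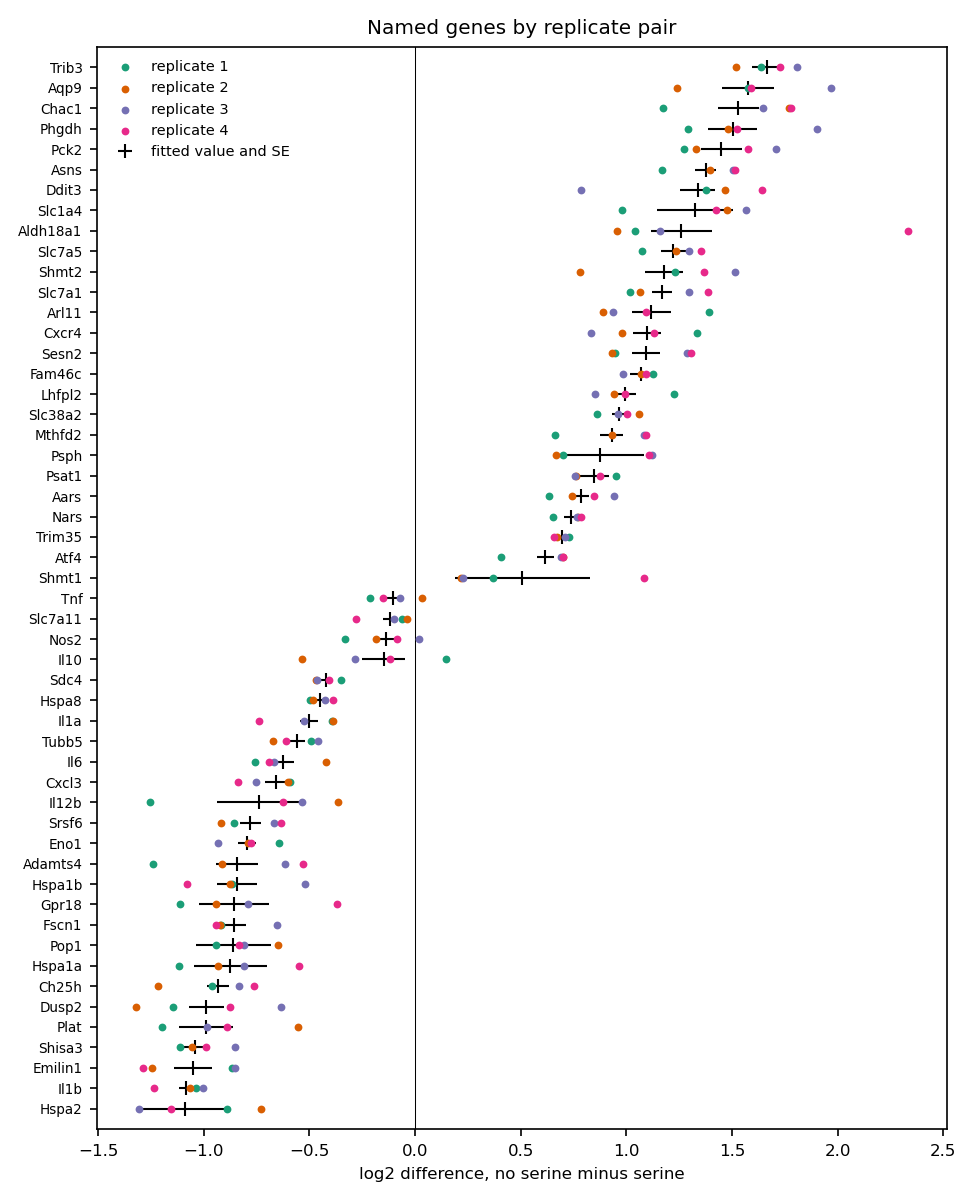
Log2 difference without serine minus with serine within each of the 4 replicate pairs (points) for the genes reported here as of largest change, of smallest p or fixed, in order of their change, with the fitted change and its standard error in black. The 4 points of Il1b lie between -1.24 and -1.004, those of Tnf, Nos2 and Il10 fall on both sides of 0, and replicate 4 of Aldh18a1 is at 2.34 (log2) while its other pairs are between 0.954 and 1.16.

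In untreated cells the same withdrawal gave 0 calls of 10646 genes tested (0%) in the paired edgeR fit of all 8 libraries, with 267 genes at an unadjusted p under 0.05 and 3 called higher when no filter on low counts was used. Replicate 4 of the untreated cells without serine held 2871477 counts, the fewest of the 16 libraries, the next lowest untreated library holding 5760734. With replicate 4 of both untreated groups left out, 430 of 10805 genes (3.98%) were called higher and 323 (2.99%) lower. Of the genes higher under LPS 328 were among these, 27.2% of the LPS calls and 76.3% of the untreated ones. Of those lower under LPS 157 were, 14.9% and 48.6%, and 8 genes were higher under LPS and lower in untreated cells and 5 the reverse. The 2 comparisons share no library but carry the same replicate numbers. All values for untreated cells below are from replicates 1 to 3.

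ATF4 network genes were called higher in untreated cells (replicates 1 to 3), 34 of 36, and under LPS, 32 of 36. Cytosolic synthetases were too, 12 of 20 against 14. Of all genes, 3.98% were called higher in untreated cells and 12.1% under LPS. With replicate 1, 2 or 3 left out in place of 4, 0 genes were called in untreated cells, as with all 8 libraries. Asns changed by 1.39 ± 0.06 in untreated cells and 1.38 ± 0.05 under LPS, Phgdh by 1.16 ± 0.17 and 1.503 ± 0.11, Mthfd2 by 1.44 ± 0.07 and 0.93 ± 0.05, and Chac1 by 2.51 ± 0.21 and 1.53 ± 0.10. In cholesterol synthesis 7 of 24 fell in untreated cells, against 2.99% of all genes, and Hmgcs1, at -0.12 ± 0.06, was not called there. The difference of Hmgcs1 between the states was not called either. Slc7a11 was called higher in untreated cells (0.47 ± 0.09) and lower under LPS (-0.12 ± 0.03), though the difference between the states was not called (edgeR adjusted p = 0.0588 without the shallow library). Il1b, Il6 and Il1a had too few counts for the test in untreated cells.

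The difference between the withdrawals was tested as an interaction in 1 edgeR fit. Over all 16 libraries 0 of 11004 genes passed (0%), with 465 at an unadjusted p under 0.05, while DESeq2 called 3 higher and 5 lower under LPS. With the shallow untreated library left out, edgeR called 8, of which 7 are described, chosen by that test alone and not by size. Cxcr4 changed by 1.10 ± 0.07 under LPS and 0.06 ± 0.03 in untreated cells, a difference of 1.01 ± 0.11 (edgeR adjusted p = 0.000206). It alone was called when replicate 4 of all groups was left out. Trp53inp1 changed by 0.82 ± 0.10 and 0.04 ± 0.05 (difference 0.78 ± 0.12, edgeR adjusted p = 0.00802). Srsf6 fell in both, by -0.78 ± 0.05 and -0.25 ± 0.05, and Cebpg, a partner of ATF4, rose in both, by 0.88 ± 0.05 and 0.34 ± 0.06, each by more under LPS, as did Klhl24 (0.76 ± 0.05 and 0.26 ± 0.04). Tnfaip2 fell under LPS (-0.17 ± 0.03) and rose in untreated cells (0.28 ± 0.04). Jdp2, a repressor of the AP-1 family, did not pass under LPS (0.05 ± 0.05) and rose in untreated cells (0.88 ± 0.12), a difference of -0.82 ± 0.13 (edgeR adjusted p = 0.0133). Cxcr4, Trp53inp1, Srsf6 and Jdp2 were also called in DESeq2 over all 16 libraries. Tnfaip2, Klhl24 and Cebpg were called only in the edgeR fit without the shallow library.

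**Figure D5:**
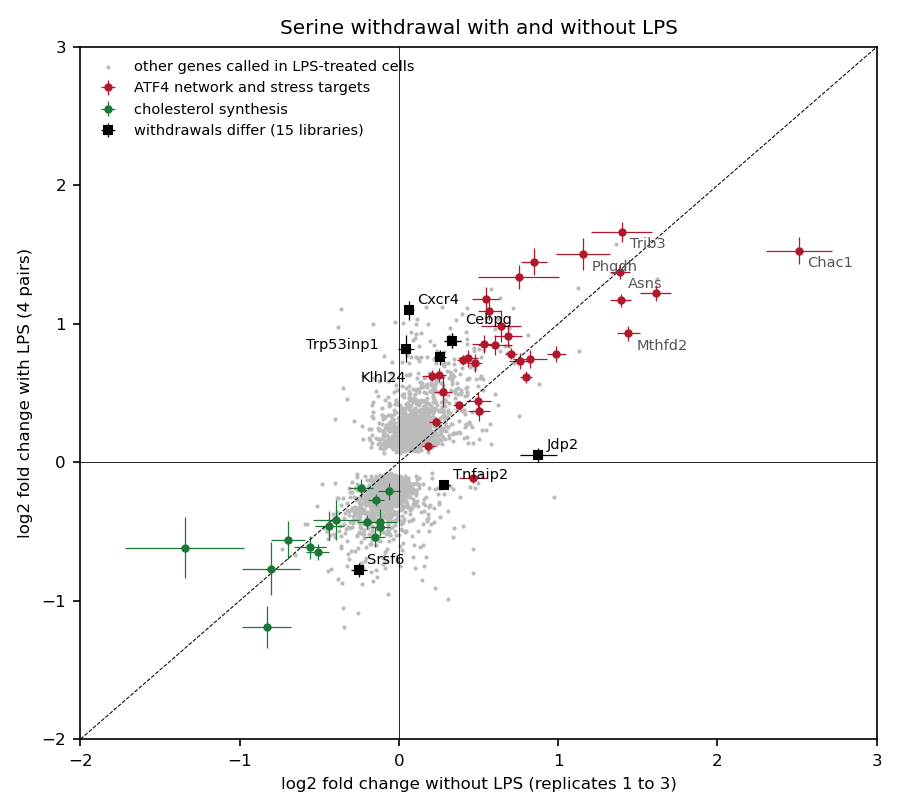
Log2 change without serine minus with serine under LPS (4 pairs, vertical axis) against the change in untreated cells (replicates 1 to 3, horizontal axis). The genes were called under LPS (and Jdp2, called in untreated cells alone) and tested in both. The ATF4 network is in red, cholesterol synthesis in green and the line of equal change dashed. Black squares are 7 genes called for a difference between the states in edgeR without the shallow untreated library, against 0 calls over all 16 libraries. The ATF4 network lies mostly in the quadrant where both changes are above 0, whereas Cxcr4 sits near 0 in untreated cells and at 1.10 under LPS.

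Gene length and base composition moved with the direction of change. Genes called higher had a median length of 9395 bases and those called lower 5448, against 6657 over all genes tested, and their median GC contents were 47.4%, 50.9% and 49.3%. Across genes the change correlated with log2 length at 0.124 and with GC at -0.114, and within single pairs with length at 0.0638 to 0.115, a description over genes that are not independent. When length and GC were corrected for in the paired fit, an alternative chosen after seeing the data, 1092 genes were called higher and 1020 lower, of which 1003 and 894 were among the calls above. Called genes were also the better counted ones, with median levels of 76.5 CPM (higher) and 60.7 CPM (lower) against 23.6 CPM overall. The libraries were unstranded, which leaves overlapping genes on opposite strands unresolved.

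The authors' deposited table of the same comparison marks 65 genes as higher and 20 as lower without serine, of 10908 genes in the table, and the highest adjusted p of a marked gene in the authors' deposited table is 0.00945. All 65 and all 20 were called in the same direction here, at a threshold of 0.05. That table compares the same 2 groups, so the overlap is no independent support. Some genes called here had a larger adjusted p in the authors' deposited table, such as Il6 (0.0794) and Cxcl3 (0.887).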

How the data were processed

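Each library was 1 sample of RNA from a mouse macrophage culture. The authors deposited unscaled whole-number counts for each Ensembl gene. Trimmomatic 0.33, STAR, SAMtools, HTSeq, edgeR and build mm10 appear in the submitters' processing notes without their roles or order. The log2 fold changes in the authors' deposited table were not used, and its p-values and marks only for the comparison stated. Another 24 per-sample columns were left out. Coordinates and gene lengths are as deposited.

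The tools were R 4.3.3, edgeR 4.0.16 and, for alternatives, limma 3.58.1. Genes were filtered with filterByExpr and scaled by TMM (factors 0.97 to 1.04), and a robust quasi-likelihood model of group and replicate number was fitted to the 8 LPS libraries. Tests are two-sided, adjusted by the Benjamini-Hochberg method over all genes tested, with a threshold of 0.05. Levels are CPM scaled by TMM, and precision is limited by the depth given above. The numbers pair the libraries: deviations from the group means correlated across genes at 0.449 to 0.735 between same-numbered libraries of the 2 groups, and at -0.449 to 0.189 otherwise. No 2 libraries were copies (chi-square per degree of freedom at least 3.2 over 28 pairs). The difference between LPS-treated and untreated cells was an interaction over all 16 libraries. Alternatives were DESeq2 1.42.0, other scalings and filters, no block, limma-voom, a length and GC correction, and leaving out each replicate; the scripts were tested on simulated data.

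Members and the 48 gene lists and 7 marker lists were chosen with earlier results of these data known. Named genes are 19 fixed ones, the 15 of largest change in each direction with 4 of 4 pairs and a mean of at least 5 CPM in the higher group, the 10 of smallest p in each direction, up to 4 called members of smallest p per list, or 2 where none was called, and the genes called in the difference; other members are named where a list has 5 or fewer calls, after their values were seen. A few genes that this rule names are not reported here, and in their place the next called members of smallest p were named for cholesterol synthesis. Promoters are the RefSeq windows of GRCm38.p6, matched for 7554 of the 9989 genes.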

Additional observations from a re-analysis of the deposited data

Results flagged for a closer look

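Single libraries or pairs that stood apart from the other 3 of their group were sought in 168 groups of 4 values over 54 genes, by the gap to the nearest value against the whole range, and 9 were found, where chance flags about 1 in 20 groups. Replicate 1 with serine stood above the other libraries for Atf4 (374 CPM, the rest 231 to 248 CPM), Slc1a4 (6.34 CPM, the rest 1.66 to 2.42 CPM), Slc38a2 (324 CPM, the rest 176 to 201 CPM) and Tnf (1452 CPM, the rest 884 to 974 CPM). Replicate 4 without serine stood below the others for Il12b, at 36.4 CPM against 58.8 to 59.0 CPM. Within pairs, the log2 difference of Aldh18a1 in replicate 4 was 2.34, against 0.954 to 1.16. That of Atf4 in replicate 1 was 0.405, against 0.690 to 0.702, that of Nars in replicate 1 was 0.653, against 0.766 to 0.787, and that of Fscn1 in replicate 3 was -0.65, against -0.94 to -0.92.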

How the results depend on the processing

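In LPS-treated cells no result named above reversed its direction under any alternative that was run, and all 2259 called genes kept their sign in each setting in which they had a value, except 1 under the length and GC correction. With no replicate block 24 genes were higher and 11 lower, and 25 of the 195 named genes kept their side of the threshold. DESeq2 gave 616 higher and 444 lower (166 of the 185 named genes with an adjusted p kept), a fit of all 16 libraries with the replicate block 73 and 25 (57 kept), and a fit of 15 libraries without the shallow untreated library, added after seeing the data, 553 and 369 (128 kept). Leaving out 1 replicate gave 936 to 1036 higher and 765 to 885 lower. DESeq2-type scaling gave 1186 and 1053, total-count scaling 1108 and 1150 (49.1% of calls higher, against 53.5%), no filter on low counts 1081 and 1039, and limma-voom, also added later, 1205 and 1048.

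The difference between the withdrawals had 0 calls in edgeR over 16 libraries, 3 higher and 5 lower in DESeq2, 0 to 1 when 1 replicate was left out of all groups, and 4 higher and 4 lower without the shallow library alone. In untreated cells leaving out 1 replicate gave 0 to 430 higher and 0 to 323 lower, the upper values being those without replicate 4, and no filter on low counts gave 3 higher. Why these counts moved was not tested, and some of the fits also differed in their number of libraries. DESeq2 gave no adjusted p to 10 named genes, most of them of few counts, among them Psph, Slc1a4, Hspa2 and Shmt1. Their log2 changes in it were 0.94, 1.41, -1.10 and 0.54, against 0.87, 1.32, -1.09 and 0.51 in edgeR, and the count of genes kept leaves them out.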

Other observations

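Several gene groups outside the comparisons above gave calls, mostly of small size, in the paired edgeR fit. Of 15 genes for nitric oxide, arginine and polyamines, 3 rose and 4 fell (20% higher and 26.7% lower, against 12.1% and 10.5% of all genes). Arg2, the mitochondrial arginase, stood at 5.12, 1.85, 1.93 and 0.978 CPM with serine and 10.8, 2.42, 3.79 and 2.98 CPM without it, higher in each pair at low counts (0.999 ± 0.22, edgeR adjusted p = 0.000393), and Sat1, a polyamine acetyltransferase, rose by 0.15 ± 0.03. The number that fell was 1 without replicate 1 and 2 without replicate 2. Enzymes of prostaglandins and leukotrienes gave 5 lower and 1 higher of 12 (8.33% higher and 41.7% lower), with Ptges, which makes prostaglandin E2 (-0.22 ± 0.03), and Alox5ap, a partner of 5-lipoxygenase (-0.13 ± 0.04), lower and the phospholipase Pla2g4a (0.24 ± 0.05) higher, and 3 fell without replicate 1, 2 or 3. Of 18 genes of iron and metal handling 6 fell and 2 rose (11.1% higher and 33.3% lower), with the metallothionein Mt2 (-0.44 ± 0.06) lower and the zinc exporter Slc30a1 (0.52 ± 0.05) higher.

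Calls among surface receptors and antigen presentation were few. Of 21 scavenger, Fc and lectin receptors, Mrc1, the mannose receptor (0.40 ± 0.05), and Stab1 (0.29 ± 0.04) rose and 4 fell (9.52% higher and 19% lower, against 12.1% and 10.5% of all genes), among them Marco (-0.20 ± 0.05), with 1 falling without replicate 2. Among 13 genes of MHC class II and costimulation the inhibitory ligand Cd274 (0.47 ± 0.03) and Cd86 (0.26 ± 0.05) rose and Cd40 fell (-0.08 ± 0.03), which is 15.4% higher and 7.69% lower and near the shares of all genes, the last not called without replicate 1, 3 or 4. MHC class I processing gave 1 call of 15 (6.67% higher and 0% lower), the peptidase Erap1 (0.15 ± 0.05), lost without replicate 3 or 4. Receptors for purines and metabolites gave 4 lower and 0 higher of 13 (0% higher and 30.8% lower), the fatty acid receptor Gpr84 (-0.40 ± 0.03), the hydroxybutyrate receptor Niacr1 (-0.40 ± 0.06) and the adenosine receptors Adora2b (-0.42 ± 0.08) and Adora2a (-0.24 ± 0.05). Of 9 phagocyte oxidase genes 2 rose, the catalytic subunit Cybb (0.11) and catalase, Cat (0.13), and 4 fell (22.2% higher and 44.4% lower), with 1 rising without replicate 1 or 3 and 2 falling without replicate 2 or 4. Of 18 genes of DNA replication and mitosis, Cdt1, which licenses origins (0.80 ± 0.07), rose and 2 fell (5.56% higher and 11.1% lower), Pcna (-0.13) and Ccne1 (-0.37), of which 0 were called without replicate 3 and 1 without replicate 1 or 2.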
